A study of Mus musculus with 82 samples.

Results

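CAST/EiJ is an inbred mouse strain derived from wild mice of the subspecies Mus musculus castaneus. Its 2 arrays, out of 82 arrays of naive CD4 T cells in the series, were compared with 74 arrays of 36 strain groups that derive mainly from the subspecies Mus musculus domesticus. The arrays were taken by their background label and the groups by the array titles. The 36 groups were 129S1/SvImJ, A/J, AKR/J, BALB/cByJ, BPL/1J, BTBR T+ tf/J, C3H/HeJ, C57BL/10J, C57BL/6J, C57BLKS/J, C57L/J, CBA/CaJ, CBA/J, CE/J, DDY/JclSidSeyFrkJ, FVB/NJ, KK.Cg-Ay/J, LGJ, LP/J, MA/MyJ, MRL/MpJ, NOD/ShiLtJ, NON/ShiLtJ, NOR/LtJ, NZB/BINJ, NZW/LacJ, P/J, PL/J, RIIIS/J, SEA/GnJ, SJL/J, SM/J, SWR/J, WSB/EiJ, and the groups titled C57BR and DBA2. For the last pair the background labels differ from the titles (CBA/CaJ on the arrays titled C57BR and DBA/1LacJ on those titled DBA2). The remaining 3 groups, with 6 arrays, were PWD/PHJ (derived from the subspecies musculus), MSM/Ms and JF1/Ms (both of Japanese origin, from the hybrid molossinus). Each group had 2 arrays, except C57BL/6J with 5 and SWR/J with 1.

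All mice were male, carried no named treatment, and were labelled as 6 weeks old, whereas the series text gives 5 weeks. Each array held RNA from spleen cells of 2 to 3 mice pooled, sorted as naive CD3+ CD4+ cells with markers of other lineages and CD25 excluded. KK.Cg-Ay/J carries the Ay allele of the agouti gene and BTBR T+ tf/J the tf allele, and no label names an engineered allele. The labels do not say how the mice of a pool were chosen, so p-values measure the spread between pools, which is the only replication here. Naive CD4 T cells circulate through spleen and lymph nodes until their receptor meets antigen on MHC class II, and interferons and survival cytokines set part of their resting gene expression. Wild-derived strains of other subspecies differ from C57BL/6J at many more sites than the classical strains do from each other. Array probes are short sequences designed on the C57BL/6J reference, so a site that differs under a probe can lower its signal, and how far that entered any lower value below was not tested. In pooled cells, fewer cells expressing a gene and less of its RNA per cell cannot be told apart.

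The values were gene-level intensities of 24922 probe sets, of which 21425 carried 1 gene symbol. Array medians ran from 102.1 to 141.8, and the CAST/EiJ arrays, numbered replicates 2 and 3, stood at 122.8 and 118.9. The 2 CAST/EiJ arrays correlated at r = 0.9959 with each other over probe sets, and no array of another strain exceeded 0.986 with either. PL/J replicate 2 and A/J replicate 2 stood apart from the rest through B cell genes. Leaving both out changed no test call followed for the genes named by the selection rule, but took Spo11 out of the private set described below. C57BL/6J replicate 5 correlated at 0.9875 to 0.9918 with the other 4 arrays of its group, each of which reached 0.9963 or more with another of them, and without it the calls against the 36 groups, 3973 in all, became 4746.

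The sort markers were checked first. Cd3e, a CD3 chain on which the sort relied, read 7143 and 6441 on the CAST/EiJ arrays, against 5481 to 8145 in the 36 groups. Cd4 read 4539 and 4731, inside the range of 2786 to 5668. Neither differed by the test (limma adjusted p = 0.989 and 0.122, two-sided). The other CD3 chains were called lower. Cd3d read 787 and 784 against 762 to 1510 (-0.49 ± 0.10, log2 and SE, limma adjusted p = 9.29e-05), and Cd3g read 4443 and 4567 against 3357 to 8085 (-0.47 ± 0.08, adjusted p = 1.25e-05). Neither was called on strain means, which take each strain as 1 replicate (adjusted p = 0.2 and 0.354). Among 18 B cell genes and 6 erythroid genes none was called in either direction. Of 13 natural killer cell genes 3 were called higher and none lower: Gzma, Itga2 and Klrb1c. The summed level of that list, as the mean log2 over its genes, was 6.12 and 6.09 on the CAST/EiJ arrays, above the range of 5.52 to 5.92 in the 36 groups. Gzma is a member of that list, and without it the level was 5.93 and 5.91, against 5.57 to 5.95 in the 36 groups. PL/J set the upper end of that range, and its replicate 2 is an array that stood apart, as given above. The called genes Gzma, Itga2 and Klrb1c each lay above their ranges in the 36 groups, with values given below. Among genes of the list that were not called, Ncr1 read 23.6 and 20.3, inside the range of 16.7 to 31.2. Gzmb, not called either, read 37.7 and 34.1, inside the range of 29.9 to 44.0. Of 20 myeloid genes, Lyz2 and Lyz1 were called higher and Ctss and Itgam lower, with a list level of 6.35 on each CAST/EiJ array against 5.77 to 6.39. Without the pair of lysozymes it was 6.01 and 5.97 against 5.78 to 6.32, where PL/J again was the highest group. Csf1r and Cd14, receptors of macrophages and monocytes, read 68.1 and 74.6, and 56.3 and 51.5, inside their ranges of 50.5 to 96.1 and 41.9 to 61.3. Itga2, the integrin chain CD49b whose antibody excluded cells from the sort, read 231 and 221 on the CAST/EiJ arrays. Its range in the 36 groups was 82.4 to 118, and the difference was 1.19 ± 0.11 (log2, SE, limma adjusted p = 2.79e-12, two-sided). Of the other excluded markers, Cd8b1 was lower, at 205 and 207 against 401 to 897, Itgax was called higher by 0.40 and Ly6g differed by -0.38 (limma adjusted p = 0.0203 and 0.021).

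CAST/EiJ differed from the mean of the 36 groups in 3973 of the 21425 probe sets with 1 symbol. It was higher in 1739, or 8.12%, and lower in 2234, or 10.4% (limma over all arrays, Benjamini-Hochberg threshold 0.05). A difference of at least 2-fold was seen in 119 higher and 170 lower probe sets. When each strain mean was taken as 1 replicate, the CAST/EiJ difference was measured against the spread between strains. By that test 452 were higher and 448 lower, and 889 probe sets were called in both ways of testing. A call by it does not mean that CAST/EiJ lay beyond all 36 means. That second test takes the lone CAST/EiJ mean to vary as the other strain means do. The direction of small differences depended on the scale. The median difference over all probe sets was 0.07, and it became -0.04 when each array was centred on its median. The split then moved from 56.2% lower to 76.0% lower (893 higher, 2821 lower), and for strain means from 49.8% to 70.7% lower. Strain means without the dimmest 40% of probe sets were 63.9% lower. Leaving out 1 CAST/EiJ array, the count fell to 1523 (without replicate 2) or 1971 (without replicate 3).

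**Figure D1:**
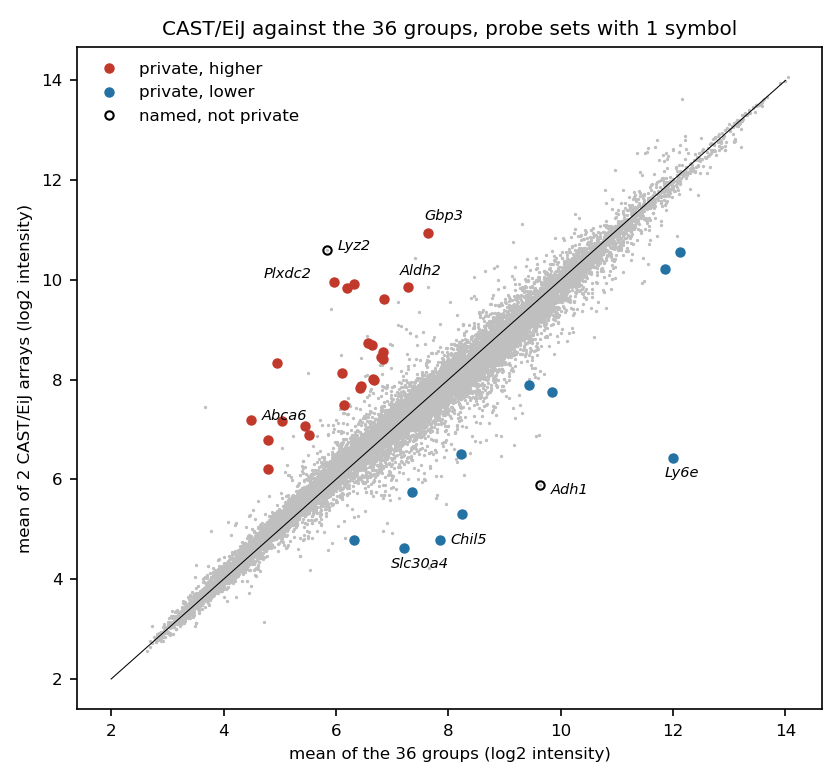
Each point is a probe set with 1 gene symbol, with the mean log2 intensity of the 36 groups on the horizontal axis and the mean of the 2 CAST/EiJ arrays on the vertical axis. The line marks equal values, red and blue points are the 24 higher and 11 lower private probe sets, open circles are Lyz2 and Adh1, which were not private, and Ly6e lies furthest below the line among the coloured points.

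A probe set was counted as private to CAST/EiJ when both arrays lay above, or both below, each of the 80 other arrays and the CAST/EiJ mean lay at least 1 log2 unit, or 2-fold, beyond the nearest of the 39 other group means. By the first condition alone 226 probe sets (1.05%) were higher and 317 (1.48%) lower. By both, 24 (0.112%) were private and higher and 11 (0.0513%) private and lower, in 34 genes, with 3 further lower probe sets that carried several symbols or none. Since these values chose the genes, they are given as a description with no test. The private genes were a mixed set: membrane channels and transporters, metabolic enzymes, scaffold proteins of epithelial or neural cells, and a smaller group with roles in immunity.

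Among the private genes with roles in immunity, Gbp3 was the brightest on the CAST/EiJ arrays. It encodes a guanylate-binding protein, a GTPase that is induced by interferon and acts on intracellular pathogens. Gbp3 read 1918 and 2020 on the CAST/EiJ arrays, against 104 to 458 in the 36 groups with a median of 187. The highest of those was LGJ, and PWD/PHJ, MSM/Ms and JF1/Ms read 330, 247 and 296. The CAST/EiJ mean was 3.30 log2 units, or 9.83-fold, above the mean of the 36 groups. Its promoter is shown with those of Ifit3 and Oas3, a pair of interferon response genes that were lower in CAST/EiJ, because the same interferon motif stands in all of them while the values ran in opposite directions. The windows run from 250 bases before to 50 bases after the annotated start, from RefSeq on GRCm38.p6, which is the C57BL/6J reference and not the CAST/EiJ genome. Capitals mark matches to GAAANNGAA, the core of the interferon-stimulated response element, on either strand, with overlapping matches joined. Gbp3 is at chr3:142559794-142560093 on the plus strand and is the first of the table's windows for the gene, Ifit3 at chr19:34583279-34583578 on the plus strand, and Oas3 at chr5:120777610-120777909 on the minus strand.
Gbp3: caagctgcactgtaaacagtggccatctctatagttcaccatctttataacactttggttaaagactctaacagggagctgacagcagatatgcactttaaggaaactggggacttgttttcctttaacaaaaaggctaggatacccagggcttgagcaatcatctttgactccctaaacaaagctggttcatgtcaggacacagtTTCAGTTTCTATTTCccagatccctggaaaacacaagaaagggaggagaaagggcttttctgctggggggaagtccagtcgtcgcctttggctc
Ifit3: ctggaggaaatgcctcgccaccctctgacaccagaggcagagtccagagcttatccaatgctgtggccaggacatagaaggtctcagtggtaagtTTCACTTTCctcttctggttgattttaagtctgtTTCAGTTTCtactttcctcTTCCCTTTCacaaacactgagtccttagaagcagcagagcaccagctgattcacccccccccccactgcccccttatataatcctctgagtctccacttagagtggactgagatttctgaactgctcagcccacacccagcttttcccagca
Oas3: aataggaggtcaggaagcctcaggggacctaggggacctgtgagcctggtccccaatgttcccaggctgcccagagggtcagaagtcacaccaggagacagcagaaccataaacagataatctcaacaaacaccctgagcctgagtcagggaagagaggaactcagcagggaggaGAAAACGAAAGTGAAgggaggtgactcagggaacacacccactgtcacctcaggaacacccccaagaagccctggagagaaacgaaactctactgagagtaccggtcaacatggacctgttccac
The Gbp3 window shown held 2 overlapping matches, the Ifit3 window 3 and the Oas3 window 2 overlapping matches. The other annotated Gbp3 window, which is not shown, held no match. Over all 32851 RefSeq promoter windows of that length, 8.56% held the motif, and a match is a description and not a site. Ifit3 and Oas3 were chosen for display after their values were seen, from the lower members of the interferon list with the most matches, where Oas1c has 2 as well.

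Gzma encodes granzyme A, a protease of the cytotoxic granules of natural killer cells and killer T cells. It read 326 and 320 in CAST/EiJ. In the 36 groups it lay between 23.9 and 145 with a median of 28.3, and NZB/BINJ was the highest. The difference was 3.39 log2 units. The level of the natural killer cell list without Gzma, as given above, lay just below the upper end of its range over the 36 groups, which PL/J set. Casp4, an inflammatory caspase that senses bacterial lipopolysaccharide in the cytosol, read 281 on both CAST/EiJ arrays, against 43.5 to 127, a difference of 2.02. Hopx, a small homeodomain protein expressed in effector and memory T cells among other tissues, read 391.7 and 443, against 61.5 to 170, a difference of 2.06.

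Several private genes encode membrane proteins. Plxdc2, a transmembrane protein with a plexin domain, read 925 and 1065 in CAST/EiJ, against 51.2 to 73.1 in the 36 groups. PWD/PHJ stood between at 196, and the CAST/EiJ difference from the 36 groups was 3.98 log2 units, the largest of the higher private probe sets. Kcnj16, an inwardly rectifying potassium channel subunit, read 999 and 842, against 39.7 to 194. MSM/Ms was nearest at 199.8, and the difference was 3.64. Clstn3, a calsyntenin with a role in synaptic adhesion, read 984 and 954, against 69.6 to 94.1. PWD/PHJ, MSM/Ms and JF1/Ms lay at 269, 219 and 212, above all of the 36 group means but well below CAST/EiJ, and the difference from the 36 groups was 3.60. Abca6, an ATP-binding cassette transporter of the lipid transporter subfamily, read 151 and 141, against 19.5 to 27.1. Its difference was 2.70, and no group mean other than CAST/EiJ exceeded 27.1. Kcnj16 and Abca6 lie near each other on chromosome 11 with 2 protein-coding genes between them. Tspan10, a tetraspanin, read 264 and 256, against 91.7 to 118, a difference of 1.36.

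A group of metabolic enzymes was private and higher as well. Aldh2, the mitochondrial aldehyde dehydrogenase, read 837 and 1028 in CAST/EiJ, against 98.3 to 309.5 in the 36 groups. The highest of these was DDY/JclSidSeyFrkJ, while PWD/PHJ, MSM/Ms and JF1/Ms lay low, at 79.98, 98.2 and 100.2, so that CAST/EiJ alone of the 4 was raised. The difference from the 36 groups was 2.57 log2 units. Aldoc, a glycolytic aldolase best known from brain, read 770 and 792, against 87.9 to 165, a difference of 2.76 with MSM/Ms nearest at 269. As3mt, an arsenic methyltransferase, Acacb, the mitochondrial acetyl-CoA carboxylase, and Gucy1b1, a subunit of soluble guanylate cyclase, were private at lower levels. Their CAST/EiJ readings were 410 and 445, 212 and 246, and 115 and 105. The remaining higher private genes were Fam171b, at 147 and 143 against 27.9 to 68.3, Apobec2, at 179 and 179.8 against 54.0 to 86.2, and Pgpep1l, at 236 and 235 against 66.9 to 114. Plch1 read 136 and 103 against 41.3 to 54.9, and Rassf8 read 59.3 and 93.1 against 22.4 to 34.1.

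Scaffold and cytoskeletal genes were also private and higher. Dlg5, a membrane-associated guanylate kinase scaffold, read 304 and 385 against 95.3 to 136, a difference of 1.58. Tns1, a focal adhesion protein, read 372 and 379 against 77.9 to 166 on the probe set with the larger difference, which was 1.72. A second Tns1 probe set was private too, at 276 and 235 against 82.1 to 124, while the brightest of its 6 probe sets, at 639 and 583, was not called (limma adjusted p = 0.21). Tanc2, a postsynaptic scaffold, read 375 and 328 against 77.2 to 161, a difference of 1.65, and Prickle2, a planar polarity protein, read 133 and 135 against 35.0 to 51.7, a difference of 1.61. The values just inside and outside the 2-fold limit were 1.02 for Acacb and 0.99 for a second probe set of Tanc2, as distances from the nearest group. On the lower side they were -1.005 for 1110032A03Rik and -0.97 for 4833420G17Rik.

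Of the private genes that were lower in CAST/EiJ, Ly6e had the largest difference. Ly6e encodes a GPI-anchored surface protein of the Ly6 family that is induced by interferon. It read 103 and 72.6 in CAST/EiJ, against 1336 to 7683 in the 36 groups with a median of 5184. JF1/Ms was low as well, at 311, whereas PWD/PHJ and MSM/Ms read 6845 and 5804. The difference from the 36 groups was -5.56 log2 units, or 47.3-fold lower. Ly6e is thus among the brighter probe sets in all but these 2 groups and below the median intensity of all values, 113.1, on the CAST/EiJ arrays.

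Other surface and signalling genes followed with smaller distances. Sema4a, a semaphorin that takes part in T cell priming, read 212 and 218 against 702 to 1138. Its difference was -2.11, and PWD/PHJ, MSM/Ms and JF1/Ms lay inside the range of the 36 groups at 1029, 856 and 993. Slc30a4, the zinc transporter ZnT4, read 20.8 and 29.6 against 96.1 to 256. It differed widely among the other subspecies groups, with 760 in PWD/PHJ, 75.6 in MSM/Ms and 327.5 in JF1/Ms, and its difference from the 36 groups was -2.58. Chil5, a chitinase-like lectin, read 29.0 and 26.7 against 65.6 to 979, a difference of -3.07. Its range over the 36 groups was wide, and MSM/Ms was higher still at 1386.

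Bpnt2, a Golgi phosphatase of the sulfation pathway, read 32.9 and 47.1 in CAST/EiJ, against 230 to 396 in the 36 groups. It was the furthest from its nearest group among the lower genes with a symbol, and its difference was -2.95. Spo11, the nuclease that opens meiotic recombination, read 33.4 and 22.7 against 59.2 to 114, with MSM/Ms and JF1/Ms high at 296 and 253, and 1110032A03Rik read 59.5 and 48.8 against 108 to 257. Gmfg, an actin regulator of haematopoietic cells, read 1105 and 1272 against 3031 to 4264, a difference of -1.65. A second Gmfg probe set read 151.5 and 83.1, differed by -0.89 and was not private. Clip1, a microtubule plus-end protein, read 229 and 248 against 548 to 822, and Scp2, a sterol carrier protein, read 76.2 and 108 against 195 to 466, with differences of -1.53 and -1.72. ND3, a mitochondrially encoded subunit of respiratory complex I, read 1193 and 1934 against 3625 to 5870, a difference of -1.56. A second ND3 probe set read 3508 and 3594 and differed by -0.30, so the probe sets of this gene disagreed in size. Leaving out CAST/EiJ replicate 2 removed ND3, Scp2, Plch1 and the second Tns1 probe set from the private set, and leaving out replicate 3 removed Spo11, Acacb, Rassf8 and 1110032A03Rik.

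**Figure D2:**
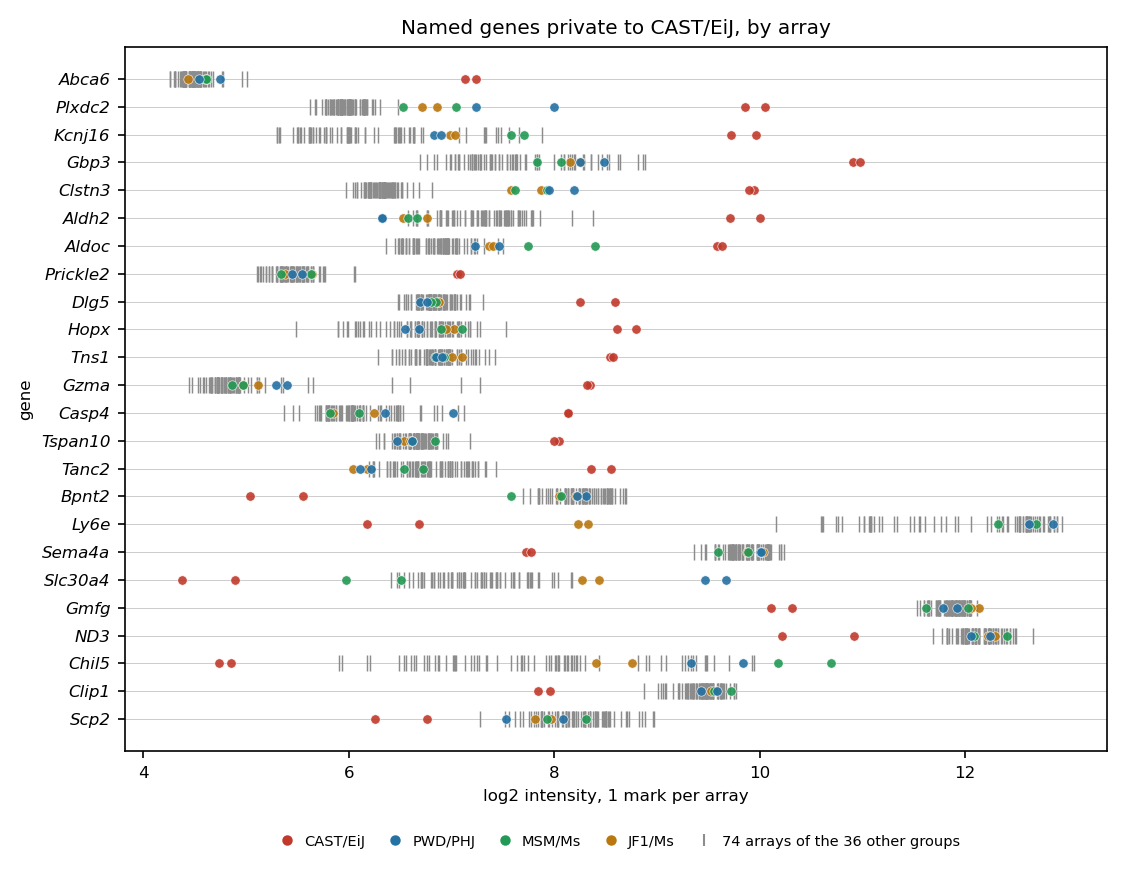
Log2 intensity of each named private gene (rows), with 1 mark per array. The CAST/EiJ marks lie beyond all marks of the 36 groups and of PWD/PHJ, MSM/Ms and JF1/Ms in every row, for example at 1918 and 2020 for Gbp3 and at 103 and 72.6 for Ly6e before taking logs.

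The same count was made for every group. CAST/EiJ had the most private probe sets, 35, followed by PWD/PHJ with 22 (19 higher, 3 lower) and MSM/Ms with 10 (4 higher, 6 lower). JF1/Ms had 4. WSB/EiJ, a wild-derived strain of the domesticus subspecies, had 6, the highest of the 34 groups of 2 arrays among the 36, whose median was 1. MSM/Ms and JF1/Ms are related strains, and a probe set shared by them cannot be private to either. In CAST/EiJ 11 of 35 private probe sets were lower, and in PWD/PHJ 3 of 22. The difference between these shares was not tested. The private genes of CAST/EiJ lay on 14 numbered chromosomes and in mitochondrial DNA, with 5 each on chromosomes 3 and 11 and 4 each on chromosomes 2 and 5. When 32 was added to all intensities before taking logs, which shrinks differences between dim values, 18 of the 35 were still private.

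**Figure D3:**
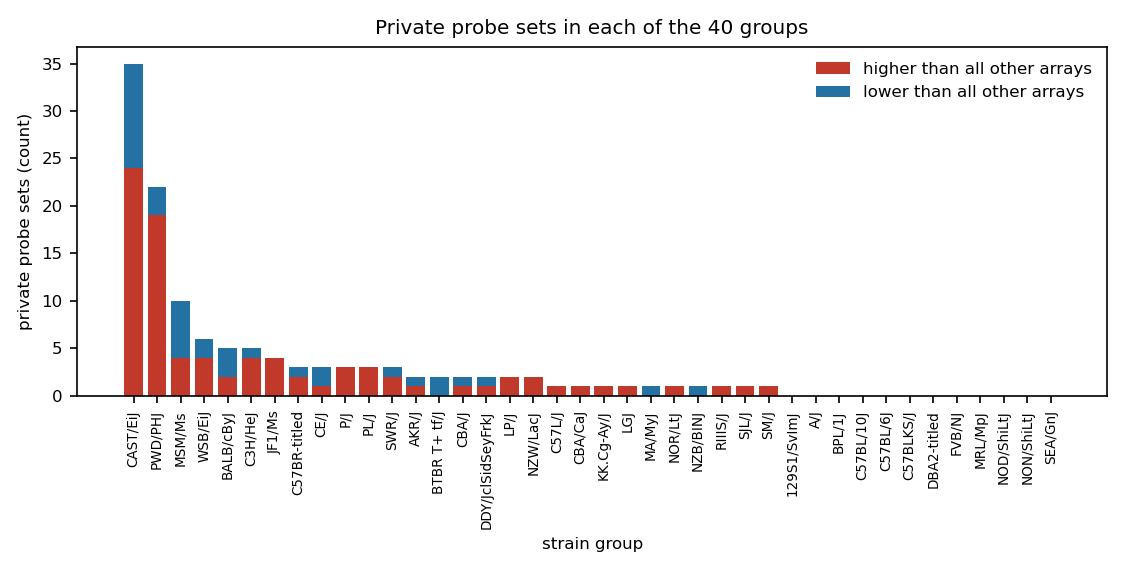
Number of private probe sets in each of the 40 strain groups, higher and lower, by the rule used for CAST/EiJ. CAST/EiJ has 35, PWD/PHJ 22, MSM/Ms 10 and WSB/EiJ 6, and all others have 5 or fewer.

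Beyond the private set, the 10 largest called differences in each direction were taken gene by gene, and several were shared by the other subspecies groups or by a few of the 36. Lyz2, the lysozyme of macrophages, read 1726 and 1416 in CAST/EiJ against a median of 49.99 in the 36 groups. Its highest group mean there was SM/J at 839, and JF1/Ms and MSM/Ms read 855 and 593 but PWD/PHJ 43.2. The PL/J arrays disagreed, with log2 values of 5.863 for replicate 1 and 10.226 for replicate 2, beside 10.753 and 10.468 in CAST/EiJ. The CAST/EiJ difference from the 36 groups was 4.77 ± 0.36 (log2, SE, limma adjusted p = 6.89e-16). CAST/EiJ was higher than 36 of 36 group means (adjusted p = 5.72e-05 with strains as replicates). The level of the myeloid list without the lysozymes, as given above, was inside its range over the 36 groups, whose upper end PL/J set. Lyz1, a paralogue of near-identical sequence whose probes may share signal with Lyz2, read 249.9 and 518 against 50.8 to 175 (difference 2.41 ± 0.17, adjusted p = 2.72e-16). MSM/Ms was higher than CAST/EiJ in Lyz1, at 1247.

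Among the receptors, Klrb1f, a member of the NKR-P1 family, read 679 and 691 against 39.1 to 155 (difference 3.51 ± 0.14, limma adjusted p = 3.21e-27). MSM/Ms and JF1/Ms were similarly bright at 944 and 594, and PWD/PHJ stood at 196. Klrd1, the CD94 chain of inhibitory and activating natural killer receptors, read 1488 and 1292 in CAST/EiJ and 1659 to 1982 in the 3 other subspecies groups, against 37.5 to 719 in the 36 groups. CAST/EiJ was above 36 of 36 groups (3.02 ± 0.17, adjusted p = 5.27e-21), yet the spread between strains was so wide that the test on strain means gave adjusted p = 0.0739. Clec2i, a ligand of NKR-P1 receptors, was lower, at 127 and 109 against 406 to 1137 (-2.69 ± 0.11, adjusted p = 2.65e-26). MSM/Ms and JF1/Ms shared the low level of Clec2i at 88.5 and 89.6, and PWD/PHJ at 480 did not.

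Nt5e, the ecto-enzyme CD73 that makes adenosine, read 830 and 1051 against 79.2 to 496 (2.23 ± 0.14, limma adjusted p = 1.12e-18). PWD/PHJ, MSM/Ms and JF1/Ms read 1112, 874 and 1092, so the high level was common to the 4 groups, and CAST/EiJ did not differ from the other 3 by the test (-0.13 ± 0.16, adjusted p = 0.599). On strain means the Nt5e difference from the 36 groups gave adjusted p = 0.0695. Ifitm2, an interferon-induced membrane protein that restricts viral entry, read 1132 and 1303 against a median of 191 (2.62 ± 0.13, limma adjusted p = 4.89e-23). NZW/LacJ, at 5738, was the exception among the 36, the 3 other subspecies groups read 2547 to 6381, and the test on strain means gave adjusted p = 0.0827. The other Ifitm2 probe sets differed by 2.45 and 1.61. Dmbt1, a scavenger receptor protein of mucosal defence, read 420 and 521 against a median of 79.2 (strain means adjusted p = 0.0706). P/J was as high at 494, and MSM/Ms and JF1/Ms read 405 and 340. C57BR-titled, C57L/J and SM/J were raised too, with log2 values of 8.467 and 8.857, 8.691 and 8.415, and 8.508 and 8.197. On that scale CAST/EiJ stood at 8.715 and 9.026.

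The remaining higher genes had other roles. Bex1, a small X-linked gene best known from neurons, read 149.8 and 206 against a median of 11.0 (3.79 ± 0.12, limma adjusted p = 9.37e-32). WSB/EiJ alone of the 36 matched it, at 178. CE/J was raised in Bex1 as well, with log2 values of 6.558 and 6.194 beside 7.227 and 7.688 in CAST/EiJ. Agbl1, a carboxypeptidase of the deglutamylase family, read 277 and 285 against 37.1 to 56.8 (2.62 ± 0.12, adjusted p = 5.98e-24). MSM/Ms was also raised in Agbl1, at 216. Btbd3, a BTB-domain protein, read 246.5 and 325 against a median of 62.2, with PWD/PHJ, MSM/Ms and JF1/Ms at 267, 209.8 and 228.5. Among the 36 groups NZW/LacJ was high in Btbd3 too, at 264. KK.Cg-Ay/J had log2 values of 8.041 and 8.005 there, beside 7.946 and 8.343 in CAST/EiJ.

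Several genes that were lower without being private were low in the other subspecies groups as well. Izumo1r, the folate receptor FR4 of regulatory and anergic T cells, read 115 and 124 against 424 to 1080 (-2.73 ± 0.13, limma adjusted p = 5.71e-23), and PWD/PHJ, MSM/Ms and JF1/Ms read 113, 97.3 and 93.4. Gpr83, a G protein-coupled receptor enriched in regulatory T cells, read 105 and 103 against 317 to 1051 (-2.47 ± 0.13, adjusted p = 4.17e-22), with 70.6 to 80.9 in those 3 groups. Lypd6b and the tetraspanin Cd9 were lower too, with 41.5 and 49.99 against a median of 266.5 for Lypd6b and 66.9 and 69.0 against a median of 349.6 for Cd9, where SWR/J was as low at 67.0. In each of these 4 genes CAST/EiJ lay within 0.43 log2 units of the mean of PWD/PHJ, MSM/Ms and JF1/Ms, and only for Gpr83, at 0.43 ± 0.15, did that difference pass the test (limma adjusted p = 0.0316).

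Adh1, the class I alcohol dehydrogenase, read 58.4 and 59.5 in CAST/EiJ and 66.6 and 59.4 in MSM/Ms and JF1/Ms, against a median of 908 in the 36 groups and 894.5 in PWD/PHJ (-3.75 ± 0.12, limma adjusted p = 1.99e-30). PL/J was the lowest of the 36, at 64.0. H60b, a ligand of the receptor NKG2D, read 16.6 and 21.0 against a median of 275, but 4 of the 36 groups were lower, CBA/CaJ the lowest at 16.7 (strain means adjusted p = 0.201). Iigp1, an immunity-related GTPase, read 44.0 and 55.3 against 58.9 to 614, with MSM/Ms at 51.2 (-2.15 ± 0.21, limma adjusted p = 3.22e-12, strain means adjusted p = 0.124). Vwa5a, a protein with a von Willebrand factor domain, read 51.7 on each CAST/EiJ array, below all other arrays and against 92.0 to 824 in the 36 groups.

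**Figure D4:**
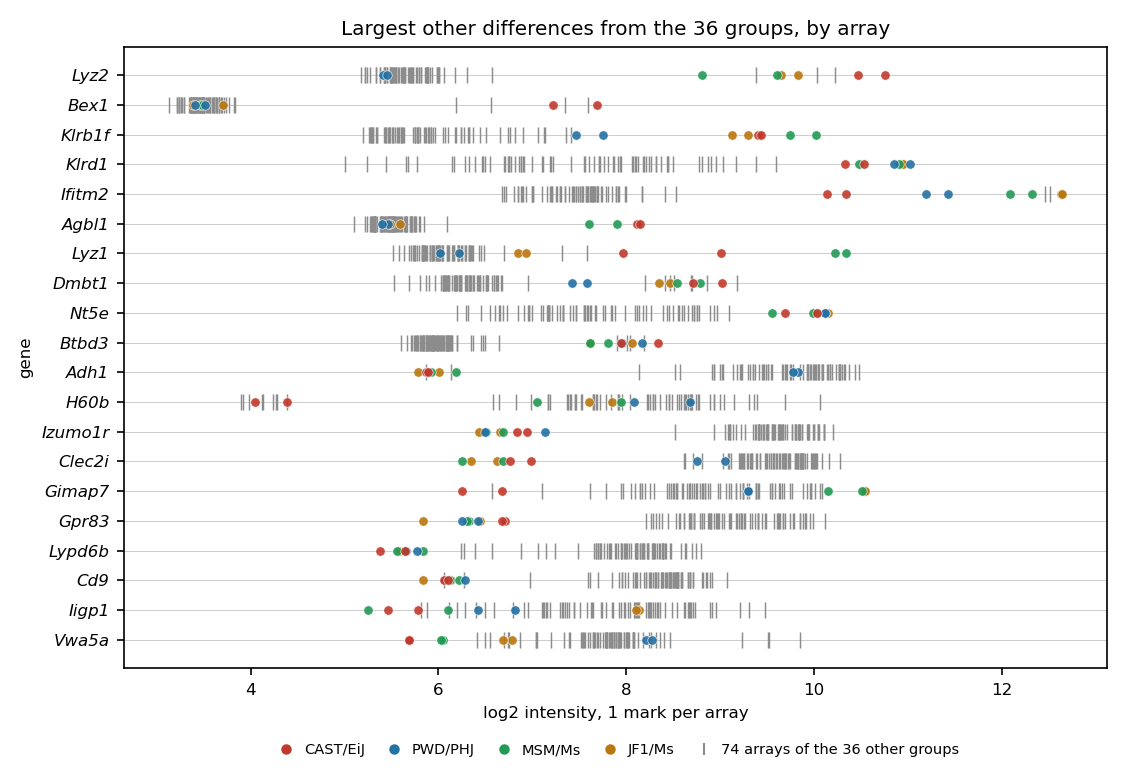
Log2 intensity of the 20 genes with the largest called differences from the 36 groups that were not private (rows), with 1 mark per array for CAST/EiJ, the 36 groups and the 3 other subspecies groups. For Klrd1, Nt5e, Izumo1r and Gpr83 the CAST/EiJ marks lie with those of PWD/PHJ, MSM/Ms and JF1/Ms, and for Lyz2 and Bex1 a few marks of other groups reach toward CAST/EiJ.

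Genes of defined pathways were then counted, with 1 probe set per gene. Over all 19752 genes, 8.08% were called higher and 10.4% lower, with a median difference of 0.07. On strain means the shares were 2.11% and 2.13%.

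More interferon response genes were called lower than higher, and the calls were not uniform. In the type I interferon response list, with 35 genes measured, 17 were called lower and 4 higher, with a median of -0.27. Without CAST/EiJ replicate 2 the calls were 8 lower and 2 higher, and without replicate 3 12 lower and 1 higher. On strain means 4 were lower (Ly6e, Irf7, Isg20 and Ifit2) and 1 higher (Mx1). The mean level of the list was 8.02 and 8.14 on the CAST/EiJ arrays, inside the range of 7.78 to 9.02 over the 36 groups, and MSM/Ms was lower at 7.83. Oas2, an RNA-sensing oligoadenylate synthetase, read 109.5 and 105 against 137.5 to 998 (-1.82 ± 0.17, limma adjusted p = 2.19e-12). Irf7, the transcription factor that amplifies interferon production, read 187 and 222 against 250.5 to 925 (-1.35 ± 0.12, adjusted p = 8.13e-13). Oasl2, an oligoadenylate synthetase-like protein, read 85.2 and 83.7 against a median of 264, with LGJ lower at 74.1. Mx1, a GTPase against influenza viruses, went the other way at 102 and 134 against 28.1 to 64.6 (1.64 ± 0.18, adjusted p = 1.29e-10), as did Mx2 at 91.3 and 154. PWD/PHJ and JF1/Ms were also high in Mx1, at 137 and 175. Ifit3 and Oas3, whose promoters are printed above, read 120 and 151 against 60.4 to 723, and 132 and 135 against 117 to 449. Their differences were -0.86 ± 0.25 and -0.64 ± 0.13 (limma adjusted p = 0.00891 and 0.000168), and neither was called on strain means. RefSeq promoter windows were found for 23 of the 35 genes. The GAAANNGAA motif was in 13 of those 23, in 5 of 11 lower genes and in the only higher gene with a window, against 9.76% of all genes in the table. TTCNNNGAA, the core of the STAT binding element, was in 6 of the 23 and in 3 of the 11 lower genes, against 9.55% of all genes.

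The GTPases of the guanylate-binding and immunity-related families, which are induced mainly by interferon-gamma, split by gene. Of 9 measured, 2 were higher and 4 lower, and without CAST/EiJ replicate 2 the lower ones were 2. Gbp5, an inflammasome regulator of the same family as Gbp3, read 503.5 and 443 against 76.7 to 292 (1.46 ± 0.14, limma adjusted p = 1.77e-12), with MSM/Ms at 47.2. Gbp8 read 280 and 243 against a median of 1031, and 3 of the 36 groups were lower. Irgm1 and Gbp11 were also lower, by -0.39 and -0.69.

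The Gimap genes, a cluster of GTPases on chromosome 6 that support survival of T cells, were the list with the lowest median, -0.94. Of 8 measured, 7 were called lower and none higher, and 5 of them (Gimap1, Gimap4, Gimap6, Gimap7 and Gimap8) were lower on strain means. The list level was 9.14 and 9.27 on the CAST/EiJ arrays, below the range of 9.36 to 10.54 in the 36 groups and below PWD/PHJ, MSM/Ms and JF1/Ms at 10.40, 10.52 and 10.54. Gimap7 read 76.2 and 103 against 114 to 1052 (-2.48 ± 0.13, limma adjusted p = 1.81e-22). Gimap8 read 180 and 167 against 160.5 to 849.8 (-1.72 ± 0.12, adjusted p = 6.09e-17). Gimap6 read 1107 and 1458 against 1718 to 3841, and Gimap4 read 1829 and 1941 against 2576 to 5441. CE/J was the lowest of the 36 groups in all 4 of these genes. Gimap5, a member whose loss shortens T cell life, read 598 and 647 against 377 to 857 and was not called (0.01 ± 0.09, adjusted p = 0.97). Against the mean of PWD/PHJ, MSM/Ms and JF1/Ms all 8 Gimap genes were lower, where 11.1% of all genes were lower and 6.33% higher. The neighbouring genes of 1 cluster share their haplotype and are not independent of each other.

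The T cell receptor complex and its coreceptors had 8 of 13 genes lower and 1 higher, with a median of -0.43, and 2 were lower on strain means. Cd247, the zeta chain that carries the signal, read 760 and 748 against 941 to 1459 (-0.68 ± 0.08, limma adjusted p = 3.86e-09). Cd8b1, the beta chain of the coreceptor of killer T cells, had the largest difference, -1.58 ± 0.10, while Cd8a read 103 and 88.7 and was not called. Ptprcap, a CD45-associated protein, read 1548 and 1656 against 1792 to 3002 (-0.54 ± 0.12, adjusted p = 0.000488), and without CAST/EiJ replicate 2 its adjusted p was 0.0622. Of 32 genes of receptor signalling 8 were lower and 1 higher, but after quantile normalization 4 were lower and 4 higher, and without CAST/EiJ replicate 2 only 1 was lower.

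MHC class I and antigen processing genes had 11 of 20 lower and none higher, with a median of -0.32. Psmb9, an immunoproteasome subunit, read 419 and 486 against 415 to 1065 (-0.68 ± 0.12, limma adjusted p = 2.98e-05), and Tap1, the peptide transporter, read 1384 and 1436 against 1048 to 2437 (-0.43 ± 0.07, adjusted p = 1.01e-05). These values lay within the range of the 36 groups, and only Psme2, a proteasome activator subunit, was called on strain means. Without CAST/EiJ replicate 2 Psme2 had adjusted p = 0.0707 on arrays, and 7 of the 20 genes were lower. H2-Q4, a class Ib molecule, read 910 and 892 in CAST/EiJ, 513 in PWD/PHJ, and 61.4 and 44.9 in MSM/Ms and JF1/Ms. Class I genes have near-identical copies, so their signals may mix.

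Oxidative phosphorylation subunits had 15 of 49 genes lower and none higher, with a median of -0.20, and 1 was lower on strain means. Ndufb6, of complex I, read 274 and 403 against 309 to 994 (-1.04 ± 0.21, limma adjusted p = 0.000203), and Ndufa6 read 280 and 310 against 394 to 861 (-0.92 ± 0.21, adjusted p = 0.00082). Cox5b, of complex IV, read 791.5 and 815 against 825 to 2464 (-0.77 ± 0.10, adjusted p = 4e-08). The calls rested on both arrays: 3 subunits were lower without CAST/EiJ replicate 2, where Ndufb6 and Ndufa6 had adjusted p = 0.128 and 0.0739, and 7 without replicate 3. After quantile normalization 12 were lower and 1 higher.

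Of 17 regulatory T cell genes 4 were lower and none higher, and 2 were lower without CAST/EiJ replicate 2. Besides Izumo1r and Gpr83, Foxp3, the lineage transcription factor, read 340 and 406 against 304 to 926 (-0.59 ± 0.15, limma adjusted p = 0.00273), and without CAST/EiJ replicate 2 its adjusted p was 0.221. Il2ra, the CD25 chain excluded in the sort, read 501 and 627 against 267 to 1124 and was not called (adjusted p = 0.25). PWD/PHJ, MSM/Ms and JF1/Ms had Foxp3 at 616, 355 and 248, the last below the range of the 36 groups. The mean level of the list, which holds Izumo1r and Gpr83, was 7.54 and 7.8 on the CAST/EiJ arrays. Its range over the 36 groups was 7.58 to 8.52, and PWD/PHJ, MSM/Ms and JF1/Ms stood at 7.91, 7.66 and 7.43. Whether the share of regulatory T cells differed was not tested.

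Of 35 genes of activated or memory T cells 10 were higher and 4 lower, and 2 were called in each direction on strain means. Crip1, a LIM-domain protein of memory cells, read 6394 and 6661 against 534 to 6996 (1.00 ± 0.10, limma adjusted p = 8.43e-12). Anxa2, a membrane-binding annexin, read 209 and 257 against 75.7 to 641 (0.99 ± 0.15, adjusted p = 1.48e-06). Cd44, the adhesion receptor used to tell memory from naive cells, read 370 and 395 against 128 to 471, below PWD/PHJ at 779, MSM/Ms at 749 and JF1/Ms at 561. Tnfsf8, the ligand CD153, was lower at 147 and 168 against 267 to 642 (-1.55 ± 0.14, adjusted p = 1.13e-12).

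Of 25 natural killer receptors and Clec2 ligands 6 were higher and 2 lower, which included Klrb1f, Klrd1, Clec2i and H60b above. Without either CAST/EiJ array 3 were higher and 2 lower. Klrk1, the receptor NKG2D, read 37.7 and 32.2 against 21.1 to 31.1, and Klrb1c read 19.8 and 22.1 against 12.4 to 17.8, both below the median intensity of all values. Of 19 lysozymes and granule proteases 7 were higher and 3 lower, and 4 were higher without either CAST/EiJ array or after centring. Ctse, an intracellular aspartic protease, read 6073 and 5851 against 480 to 6683 and was high in most groups (strain means adjusted p = 0.666). Ctss, cathepsin S, read 328 and 429 against 459 to 906 (-0.90 ± 0.11, limma adjusted p = 6.49e-09).

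The extracellular ATP and adenosine pathway had 6 of 13 genes higher and 3 lower, and the 6 became 3 when arrays were centred on their medians or either CAST/EiJ array was left out. P2rx7, an ATP-gated channel, read 584 and 640 against 212 to 836 (0.69 ± 0.11, limma adjusted p = 1.06e-06). Panx1, the ATP release channel, read 248 and 276 against 332 to 556 (-0.76 ± 0.08, adjusted p = 2.86e-10), with PWD/PHJ, MSM/Ms and JF1/Ms as low at 235, 233 and 272. Of 30 Toll-like receptors and innate sensors 4 were higher and 5 lower. Casp1, the caspase of the canonical inflammasome, read 78.6 and 78.9 against 24.1 to 62.8 (1.17 ± 0.13, adjusted p = 5.43e-10). Tlr7, a sensor of single-stranded RNA, read 32.6 and 37.2 against 60.4 to 184, and the 3 other subspecies groups read 20.8 to 31.8.

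Of 30 genes of glutathione and xenobiotic metabolism 5 were higher and 8 lower, 3 of each on strain means. Gstt3, a theta-class glutathione transferase, read 198 and 214 against 81.6 to 116 (1.09 ± 0.12, limma adjusted p = 9.89e-11). Nqo2, a quinone reductase, read 73.99 and 65.99 against 110 to 285 (-1.44 ± 0.11, adjusted p = 4.52e-15), and Mgst2, a membrane-bound glutathione transferase, read 144 and 209 against 143 to 685 (-1.10 ± 0.13, adjusted p = 4.04e-09). Ephx1, the microsomal epoxide hydrolase, read 388 and 572 against 659 to 1620.

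The counts of the other lists were as follows. Naive T cell genes had 4 of 22 higher and 4 lower, costimulatory and checkpoint receptors 2 of 24 higher and 5 lower, and apoptosis genes 4 of 24 higher and 2 lower. T cell transcription factors had 5 of 34 higher and 7 lower, which became 8 higher and 3 lower after quantile normalization, and 3 higher and 1 lower without either CAST/EiJ array. Cytokine receptors had 5 of 30 higher and 6 lower, against 2 and 7 after centring, 1 and 5 without replicate 2 and 3 and 3 without replicate 3. Cytosolic ribosomal proteins had 5 of 48 higher and 7 lower, with 3 and 2 without replicate 2 and 1 and 6 without replicate 3. Immediate early and stress genes had 6 of 37 higher and 2 lower, with 2 and 3 after centring and 1 each way without either array. Cell cycle genes had 3 of 35 higher and 5 lower, and chemokine receptors and integrins 4 of 26 each way. Without replicate 2 these became 1 each way and 2 higher with none lower. Trim antiviral genes had 4 of 9 lower and none higher, and the 4 calls were made without either array too. The Ly6 family, which holds Ly6e, had 4 of 10 lower and none higher, and 2 lower without either array. Complement regulators had 3 of 10 higher and none lower, with 1 higher without replicate 2 and 1 each way after centring. The Ifi200 family had 2 of 9, the Schlafen family 2 of 8, the Ifitm family 1 of 7 and the Slam family 1 of 11 in each direction, and MHC class II genes had 1 of 10 higher and 2 lower. Among markers of other cells, dendritic cell genes had 2 of 14 higher and 1 lower, CD8 T cell genes 2 of 8 in each direction, neutrophil genes 2 of 17 lower and none higher, and platelet genes 1 of 6 higher and none lower.

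**Figure D5:**
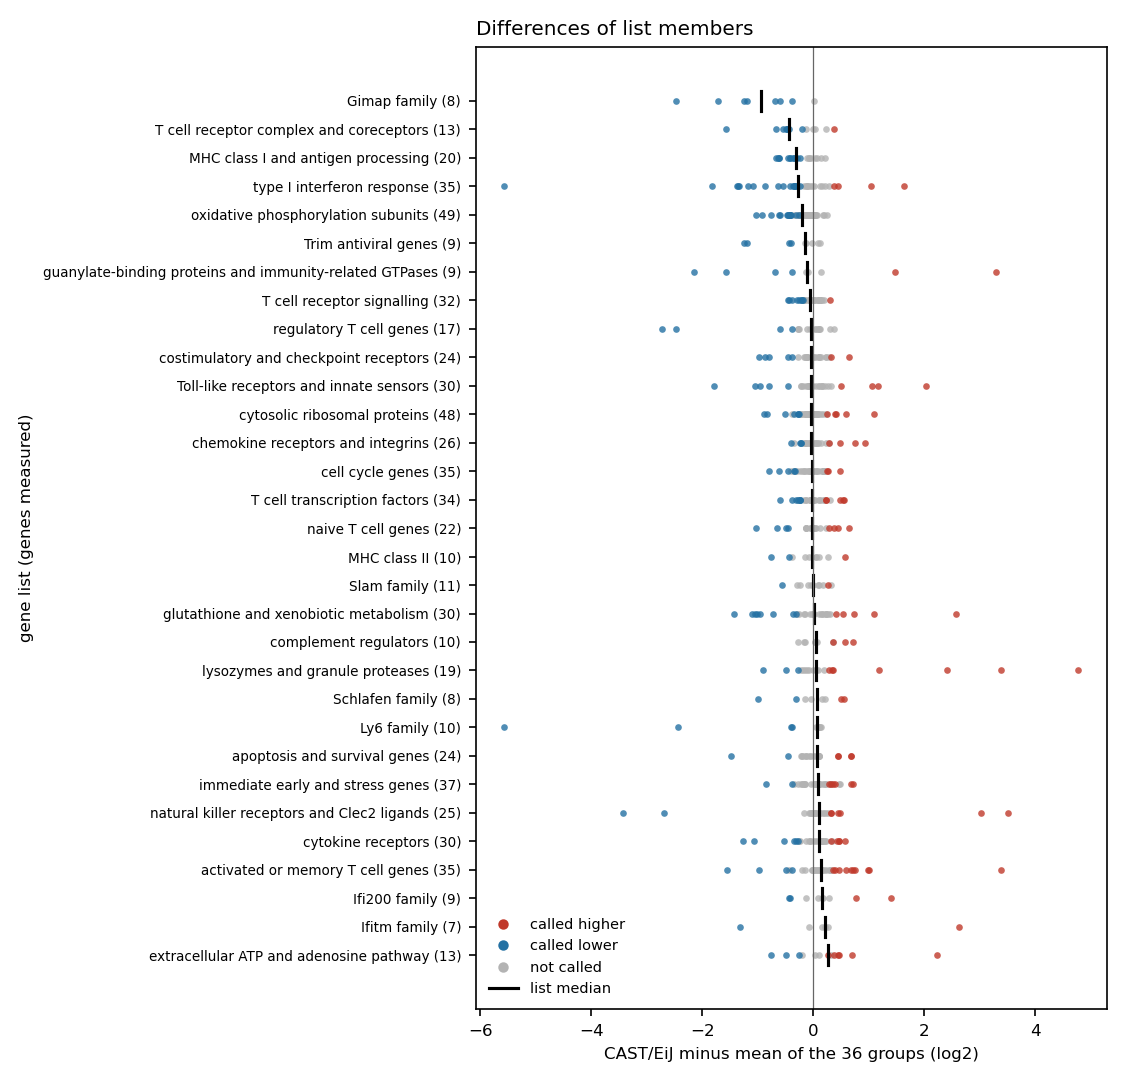
Difference between CAST/EiJ and the mean of the 36 groups (log2) for each measured gene of each list, with 1 dot per gene coloured by its call and a black tick at the list's median. The Gimap family has the lowest median, at -0.94, and the extracellular ATP and adenosine pathway the highest, at 0.27.

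CAST/EiJ was also set against the mean of PWD/PHJ, MSM/Ms and JF1/Ms in the same fit. This comparison shares the CAST/EiJ arrays with the one above, so the values are given side by side. CAST/EiJ was higher in 1363 probe sets, or 6.36%, and lower in 2372, or 11.1%. The share of lower calls was 63.5%, and 78.1% when arrays were centred on their medians (798 higher, 2843 lower). Leaving out CAST/EiJ replicate 2 or 3 gave 1580 or 2058 calls in all.

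Dapl1 had the largest difference above the other subspecies groups. Dapl1, a death-associated-protein-like gene that is high in naive T cells, read 7747 and 7082 in CAST/EiJ but 67.9, 869.5 and 341 in PWD/PHJ, MSM/Ms and JF1/Ms (4.77 ± 0.11, limma adjusted p = 2.48e-37). The 36 groups ran from 2472 to 9733, and CAST/EiJ lay within them. Tlr1, a receptor for bacterial lipopeptides, had the same order, with 1132 and 1111 in CAST/EiJ, 50.7, 101 and 109 in the other 3, and 523 to 1700 in the 36 groups (3.77 ± 0.12, adjusted p = 6.43e-31). For these genes CAST/EiJ resembled the 36 groups and the low values belonged to the other 3.

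Prelid2, a lipid transfer protein of the PRELI family, read 614 and 707 in CAST/EiJ and 70.3 to 76.0 in the other 3 groups (3.18 ± 0.17, limma adjusted p = 2.2e-21). The 36 groups ranged from 36.7 to 507. Catspere2, related to a subunit of the sperm calcium channel, read 27.5 and 23.8 in CAST/EiJ. The median of the 36 groups was near that at 24.8, but RIIIS/J among them read 489. PWD/PHJ, MSM/Ms and JF1/Ms read 576, 147 and 165 (-3.23 ± 0.18, limma adjusted p = 9.01e-21). H60b read 334, 180 and 212 in those groups, above the 16.6 and 21.0 of CAST/EiJ. Aldh2, Gzma and Bex1 among the higher genes, and Ly6e, Chil5, Slc30a4 and Gimap7 among the lower, also differed from the 3 groups, although WSB/EiJ matched CAST/EiJ in Bex1.

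MicroRNA precursors were measured by 295 probe sets, of which 23 were higher and 6 lower, beside 8.12% and 10.4% of all probe sets. These probe sets read precursor or host transcripts, not mature microRNAs, and 3 with calls on strain means are shown by the mature sequence of their product, with the seed (bases 2 to 8) in capitals. No pair of them shares a seed. The sequences are from RefSeq on GRCm38.p6, all on the plus strand, at chr16:43640665-43640684, chr7:81529919-81529940 and chr4:63256867-63256888 in the order given.
mmu-miR-568: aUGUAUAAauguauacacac
mmu-miR-1839-5p: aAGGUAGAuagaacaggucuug
mmu-miR-455-5p: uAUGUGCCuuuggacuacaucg
Mir568 read 24.4 and 37.6 in CAST/EiJ against 64.6 to 197 in the 36 groups (-2.09 ± 0.21, limma adjusted p = 9.26e-12), and PWD/PHJ, MSM/Ms and JF1/Ms lay inside that range at 158, 110.5 and 107.5. Mir1839 read 31.99 and 53.2 against 60.6 to 144 (-1.16 ± 0.23, adjusted p = 0.000117), with MSM/Ms as low at 50.6. Mir455 read 261 and 306 against 122 to 200.1 (0.90 ± 0.13, adjusted p = 5.44e-07), and all 80 other arrays were lower.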

How the data were processed

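Per the labels and the submitters' processing notes, RNA of sorted naive CD4 T cells was hybridised to Affymetrix Gene ST 1.0 arrays and summarised with RMA in Affymetrix Power Tools, whose versions are not given in the sources used here. What the authors deposited are linear intensity values, 1 per probe set and array, background-corrected and normalized by RMA. How far background correction changed differences near the floor was not tested. The values were log2-transformed and fitted in limma 3.58.1 (R 4.3.3) with 1 coefficient per group over 82 arrays (42 residual degrees of freedom). CAST/EiJ was tested against the unweighted mean of the 36 group coefficients and against the mean of the 3 other groups, two-sided, with Benjamini-Hochberg adjustment over all 24922 probe sets at 0.05. The second view used limma on 37 strain means (35 residual degrees of freedom). Group intensities are antilogs of mean log2 values. The number of arrays limits the precision, most of all the 2 of CAST/EiJ.

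Of the probe sets, 1399 had several symbols and 2098 none, by GEO's platform annotation, and no gene was named from those. 21347 probe sets had a symbol found in the GRCm38.p6 gene table. In list counts a gene was read from its brightest probe set on average. Named genes were up to 15 private genes each way by distance to the nearest group, the 10 largest other called differences each way and 6 each way against the 3 groups, with the higher side above the median intensity, and called list members by size. Genes named outside this rule, such as the markers, Gimap5, Cd8a, H2-Q4, Ifit3 and Oas3, and the calls named for a CAST/EiJ array left out, were chosen after their values were seen. The members, lists and comparisons were chosen with earlier results of these data known. The scripts were tested on simulated data. Alternatives were quantile normalization, median centring, an added offset of 32, leaving out dim probe sets, a single probe set for each symbol, an intensity trend with a robust prior, strain means, other distances for private genes, groups or arrays left out and the replicate number as a block. The levels of the natural killer cell list without Gzma and of the myeloid list without lysozymes were added after seeing the data. Sequences came from RefSeq tables, which held no promoter entry for Ly6e or Mx1. The series text mentions bone marrow granulocytes too, which were not analysed here.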

Additional observations from a re-analysis of the deposited data

Results flagged for a closer look

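In C57BL/6J, the only group of 4 or more arrays, 48 genes were screened for an array far from the others, and chance alone marks about 1 in 20 such groups. Replicate 5 was the array concerned in 4 of these genes, so they are no separate cases. It read 31.2 for Abca6 where the other 4 read 19.9 to 21.7. For Prickle2 it read 66.7 beside 36.5 to 40.7, and for Gzma 34.4 beside 27.1 to 28.3. For Bex1 it read 14.3 beside 10.4 to 11.4. Without replicate 5, CAST/EiJ had 4746 calls against the 36 groups and 4355 against the 3 others. For Vwa5a replicate 4 read 131 beside 235 to 257. In each of these 5 genes both CAST/EiJ arrays lay further out than the array concerned.

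PWD/PHJ, MSM/Ms and JF1/Ms are the other groups of non-domesticus origin. The 12 genes listed here had the 6 largest called differences each way between CAST/EiJ and their mean, by the limma contrast. That they differ follows from this choice. Other named genes differed from the 3 groups as well. All 35 private probe sets were called in this contrast, but the private rule had already set them beyond all arrays of the 3 groups. The log2 differences were 4.77 for Dapl1, 3.96 for Bex1, 3.77 for Tlr1, 3.33 for Aldh2, 3.23 for Gzma and 3.18 for Prelid2. They were -4.74 for Ly6e, -4.74 for Chil5, -3.65 for H60b, -3.59 for Gimap7, -3.42 for Slc30a4 and -3.23 for Catspere2. Of these, Aldh2, Gzma, Ly6e, Chil5 and Slc30a4 were private, a choice that used the same values.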

How the results depend on the processing

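Array probes, 2 CAST/EiJ arrays and pools of unknown composition limit these results. With strain means in place of arrays, 900 probe sets were called in place of 3973. The private count of 35 became 18 with an offset of 32, 543 with no minimum distance, 112 with a distance of 0.5 and 5 with a distance of 2. Leaving out 1 CAST/EiJ array gave 1523 to 1971 calls against the 36 groups, 1580 to 2058 against the 3 others, 1159 to 2027 on strain means, 123 to 156 list calls in place of 243, and 34 to 38 private probe sets. Leaving out any other array gave 3864 to 4746, 2922 to 4355 and 28 to 37 (against the 36, against the 3, private), and leaving out PL/J replicate 2 with A/J replicate 2 gave 895 calls on strain means and 251 list calls. The replicate number as a block gave 4069 calls (2003 higher, 2066 lower), 3770 against the 3, 223 list calls and 35 private. Deviations of same-numbered arrays correlated with a median of 0.001, with 30.8% of the pairs over 0.1. That median showed no pairing by number common to all groups, and pairing among some of them was not tested. Of the called differences of genes named by the selection rule, none changed direction under the alternatives in which single genes were followed. Named genes that were not called, such as Gimap5, or were chosen outside the rule were not checked for direction. The other total counts stayed within 1.5 times the values given. Counts in a single direction moved more: the higher private probe sets went from 24 to 14 without the dimmest 40%, and the higher list calls from 89 to 51 after median centring. The cause of the changes was not tested, except that fewer arrays leave less information.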
